A study of Mus musculus with 10 samples.

Results

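Collagen genes were followed through the ascites and the tumors of a mouse ovarian cancer model. Every gene whose symbol follows the collagen pattern (Col, a number, the letter a, a number) was taken, which gave 44 genes. All 44 had bins in the copy number tables of the tumors, and 11 of the 44 were listed as markers of an ascites cell cluster. Col4a1 and Col4a2 share their bins and were counted once, so that the tumors hold 43 collagen units among 18475 gene units, and 292 collagen bins among 59640. The 43 units lie on 15 chromosomes.

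Tumors were raised in C57BL/6 mice by in vivo electroporation of the fallopian tube epithelium with plasmids that carried Cas9, guide RNA and Cre. Whole genomes of 8 formalin-fixed ovarian tumors were sequenced at low depth. Each tumor is labelled for PAX8, a transcription factor of the fallopian tube epithelium, and for Lkb1, the kinase encoded by Stk11. The 4 PAX8-positive tumors were Lkb1-deleted tumors 1 and 4 and Lkb1-intact tumors 2 and 3, and the 4 PAX8-negative tumors were Lkb1-deleted tumors 2, 3 and 5 and Lkb1-intact tumor 1. Seen by Lkb1, 5 tumors were deleted and 3 intact. The labels give each tumor its own number, so p-values measure the spread between tumors. Ascites cells of 1 mouse, freed of red cells and labelled Lkb1-deleted, were profiled by droplet single-cell RNA sequencing, and their label holds the same mouse number as Lkb1-deleted tumor 1. Mean read depth over the bins was 1.25 to 1.57 in PAX8-positive and 1.31 to 2.24 in PAX8-negative tumors, and neighbouring bins differed with an SD of 0.28 to 0.29 and 0.20 to 0.30 on the log2 scale. Depth reached higher in the PAX8-negative tumors, and its part in the counts of altered genes was not tested. DNA of a whole tumor mixes tumor and host cells, so that few altered cells and a small copy change per cell cannot be told apart.

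Collagens are secreted proteins whose chains wind into a shared helix and assemble into the fibres and sheets of the extracellular matrix. Fibrillar collagens (types I, II, III, V and XI and the minor types XXIV and XXVII) build load-bearing fibres and in most tissues come from fibroblasts, whereas type IV collagen forms the network of basement membranes under epithelia, mesothelium and vessels. Type VI collagen forms beaded filaments around cells, fibril-associated collagens coat the fibres, and smaller families span the plasma membrane (types XIII, XVII, XXIII and XXV) or carry releasable end domains (types XV and XVIII). In ovarian cancer the collagen-rich stroma surrounds the tumor cells, and ascites can carry both tumor cells and fibroblasts.

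Upstream DNA sequences are shown for Col1a2 and Col3a1, the collagens that led the fibroblast-like ascites cluster, and for Col6a1 and Col6a2, the only collagens listed in more than 1 cluster. The 150 bases before each RefSeq start site are printed 5′ to 3′ on the gene's own strand in build GRCm38.p6, in lower case, with a CCAAT box (letters CCAAT) or a TATA box (letters TATAAA) in capitals. They span chr6:4505468-4505617 on the plus strand for Col1a2, chr1:45311388-45311537 on the plus strand for Col3a1, chr10:76726045-76726194 on the minus strand for Col6a1 and chr10:76623631-76623780 on the minus strand for Col6a2.
Col1a2: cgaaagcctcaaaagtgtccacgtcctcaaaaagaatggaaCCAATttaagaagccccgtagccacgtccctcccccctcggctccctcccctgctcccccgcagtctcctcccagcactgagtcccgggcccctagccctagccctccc
Col3a1: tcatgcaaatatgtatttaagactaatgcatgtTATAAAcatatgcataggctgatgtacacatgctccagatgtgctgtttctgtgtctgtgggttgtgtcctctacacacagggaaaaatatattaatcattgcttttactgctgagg
Col6a1: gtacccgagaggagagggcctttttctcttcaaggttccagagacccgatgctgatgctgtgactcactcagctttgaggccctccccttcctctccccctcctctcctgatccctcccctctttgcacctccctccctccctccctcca
Col6a2: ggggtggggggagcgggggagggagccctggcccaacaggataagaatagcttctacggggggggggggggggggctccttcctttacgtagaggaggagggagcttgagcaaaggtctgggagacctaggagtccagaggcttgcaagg
The CCAAT box of Col1a2 begins 109 bases before the start site, and the TATAAA of Col3a1 begins 117 bases before it. Neither set of letters, nor the GC box (letters GGGCGG), lies in the 150 bases of Col6a1 or Col6a2. Searched on both strands over 250 bases before the start, TATAAA was found at 14.3% of the 35 collagen genes in the RefSeq table and at 13.0% of all 27025 genes there, and CCAAT at 34.3% and 34.5%. GGGCGG was found at 60.0% of the 35 collagen genes, against 33.0% of all genes, and at 5 of the 9 collagen genes listed in ascites. None of the 3 motifs is contained in another, and a match describes letters only. Col1a1 and Col5a2 are named without a sequence.

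In the ascites, collagen markers stood in the cluster the authors named CAFs (the usual short form of cancer-associated fibroblasts) and in the one they named Tumor cells, and in 0 of the other 7 clusters. The authors' deposited table named 9 of the 44 collagen genes, or 20.5%, as markers of CAFs, against 0.655% of the 54949 features behind the adjusted p-values. For Tumor cells the authors' deposited table held 4 of the 44, or 9.09%, against 1.04% of features. Collagens made up 2.50% of the 360 CAF markers and 0.699% of the 572 Tumor cell markers in the authors' deposited table. The table lists a gene only from an average log fold change of 0.50 upward, read here as a natural log, and does not say which cells a cluster was set against. The other 33 collagen genes were not listed, which does not show that they were silent.

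Fibrillar collagens were listed in CAFs alone. In the authors' deposited table Col1a2, a chain of type I collagen, had an average log fold change of 2.71 in CAFs, a factor of 15.1, and ranked 2 of 360. Col3a1, the chain of type III collagen, followed at 2.07 (a factor of 7.93, rank 9), and Col1a1, the partner chain of Col1a2, at 1.89 (a factor of 6.60, rank 16) in the authors' deposited table. The chains of type V collagen, which controls fibre width, lay near the lower margin in the authors' deposited table, with Col5a2 at 0.62 and Col5a1 at 0.51. The type I and III chains thus stood at the top of the list and the type V chains far down it, with rank 239 for Col5a2 and 349 for Col5a1. The other 6 of 11 fibrillar genes were not listed in any cluster.

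Type VI collagen was the family that both clusters shared. In the authors' deposited table Col6a1 had 0.99 in Tumor cells (rank 158 of 572) and 0.84 in CAFs (rank 109 of 360). Col6a2, the chain that assembles with it, had 0.94 in Tumor cells (rank 186) and 0.73 in CAFs (rank 166) in the authors' deposited table. Col6a3, the long chain of the same filament, was listed at 0.66 in CAFs and not in Tumor cells in the authors' deposited table. Col6a4, Col6a5 and Col6a6, the alternative long chains, were listed nowhere. The table gives no comparison of Tumor cells with CAFs, so the order of the 2 clusters for Col6a1 and Col6a2 was not tested.

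Basement membrane type IV collagen was listed in Tumor cells alone. In the authors' deposited table Col4a1 reached 1.19, a factor of 3.29 and rank 103, and its partner Col4a2 reached 0.79, a factor of 2.20 and rank 258. The 4 chains of more restricted basement membranes, Col4a3 to Col4a6, were not listed. Col18a1, a basement membrane collagen whose end domain is known as endostatin, was listed at 0.52 in CAFs in the authors' deposited table, close to the lowest value listed. No fibril-associated, transmembrane or short-chain collagen, and neither Col7a1, Col26a1 nor Col28a1, was listed. The median log fold change of the collagen entries in the authors' deposited table was 0.73 in CAFs and 0.96 in Tumor cells, against 0.70 and 0.75 for all markers of those clusters. All 13 entries had an adjusted p in the authors' deposited table of 1.17e-28 or less, which measures spread over cells of 1 library and not between animals.

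**Figure D1:**
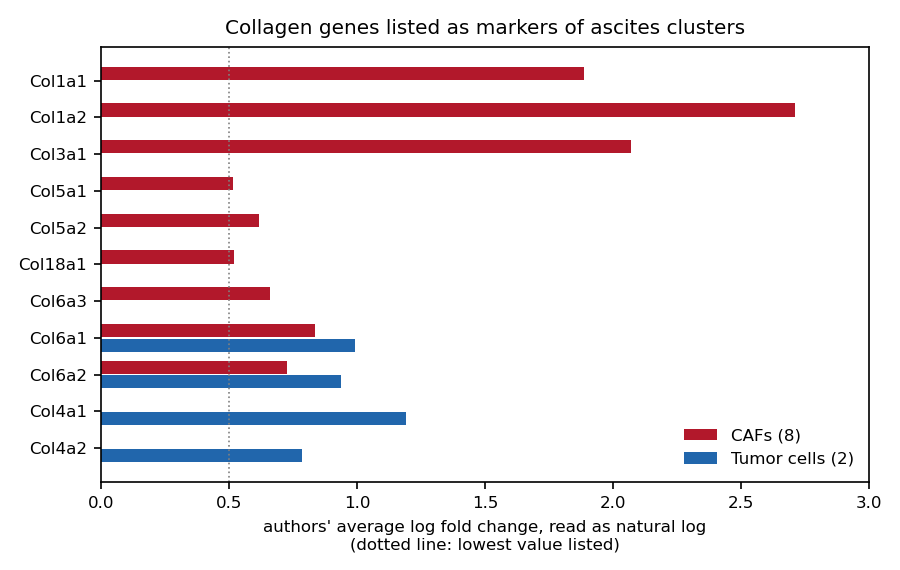
Authors' average log fold change (horizontal axis, natural log) of the 11 collagen genes listed as ascites markers, with 1 bar per gene and cluster and a dotted line at 0.50, the lowest value listed. Col1a2, Col3a1 and Col1a1 extend to 2.71, 2.07 and 1.89 in CAFs, Col4a1 and Col4a2 have a bar in Tumor cells only, and Col6a1 and Col6a2 have one in each.

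The bar plot of ascites markers sets the 9 CAF entries beside the 4 Tumor cell entries. Only Col1a2, Col3a1 and Col1a1 in CAFs and Col4a1 in Tumor cells reached a log fold change of 1, which is 4 of 13 entries. The label CAFs was checked against 12 fibroblast markers: the authors' deposited table lists 4 of them in CAFs, among them Dcn at 1.89 and Pdgfra, the receptor of platelet-derived growth factor, at 1.51. It lists 5 of the 12 in Tumor cells, among them Dcn at 2.33 and Acta2 at 1.16. Of 12 epithelial markers the authors' deposited table lists 6 in Tumor cells, led by Krt7 at 2.71, and 0 in CAFs. Of 10 mesothelial markers it lists all 10 in Tumor cells, led by Upk3b at 2.21, and 2 in CAFs, Wt1 at 0.70 and Nkain4 at 0.67. Of 7 endothelial markers the authors' deposited table lists Esam at 0.71 in Tumor cells and 0 in CAFs. The part of mesothelial or fibroblast cells in the type IV and type VI values of Tumor cells was not tested.

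Genes that fold and crosslink collagen were listed in the same clusters, where 0.655% (CAFs) and 1.04% (Tumor cells) of all 54949 features were listed. Of 32 such genes the authors' deposited table lists 7 in CAFs, led by Serpinh1, the collagen chaperone of the endoplasmic reticulum, at 2.32 and Bmp1, which trims procollagen ends, at 1.14. It lists 5 in Tumor cells, led again by Serpinh1 at 1.34 and by Pcolce, which enhances that trimming, at 1.14. Crtap, of the prolyl hydroxylation complex, at 0.97 and P4hb, a subunit of the prolyl hydroxylase, at 0.57 were listed for CAFs in the authors' deposited table, and Loxl2, a crosslinking oxidase, at 0.62 for Tumor cells. Of 15 matrix proteins that bind collagen, the authors' deposited table lists Sparc at 2.40, Bgn at 1.91 and Dcn at 1.89 in CAFs, Dcn at 2.33 and Sparc at 2.08 in Tumor cells, and Fn1 at 1.69 and Thbs1 at 0.50 in Macrophages (0). Macrophages (0) had 158 markers among the 54949 features.

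Some enzymes that cut collagen and a receptor that senses it were also listed. Of 54949 features, the authors' deposited table lists 360 in CAFs, 572 in Tumor cells and 241 in Monocytes (1). It lists 215 in B-cells (4) and 220 in T-cells (6). Of 10 collagen-cleaving enzymes the authors' deposited table lists Mmp9, a gelatinase, at 1.95 and Mmp8, a neutrophil collagenase, at 1.61 in Monocytes (1), and Mmp14, a membrane-bound collagenase, at 0.56 in CAFs. Of 11 collagen receptors it lists Ddr1, a receptor tyrosine kinase that binds collagen, at 0.88 in Tumor cells. Of 16 other basement membrane genes the authors' deposited table lists Hspg2, the proteoglycan perlecan, at 0.68 in CAFs and Lamb3, a laminin chain, at 0.92 in B-cells (4) and 0.51 in T-cells (6). None of the laminin genes in that list was a Tumor cell marker beside Col4a1 and Col4a2.

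Copy number regions called from the ascites cells were also deposited by the authors, and 11 collagen genes lie inside regions of the malignant group. With a state of 3 read as neutral, 9 of the 11 lie in gained and 2 (Col5a1 and Col11a2) in lost regions of the authors' deposited table. As shares of the 44 collagen genes these are 20.5% and 4.55%, against 12.2% of the 20470 RefSeq genes with tumor bins in gained and 8.44% in lost regions, and since neighbouring genes share a region nothing is read from these shares. Col1a2 lies in a region of state 5 on chromosome 6 from 3372257 to 28398005, together with Col28a1, and Col1a1 in a region of state 4 on chromosome 11 from 90187684 to 99231017. Both type I collagen genes, which are leading CAF markers, are thus among the genes of gained regions. In Lkb1-deleted tumor 1, which has the ascites number, the bins of the chromosome 6 region had a median log2 copy ratio of 0.27, with 0.34 over Col28a1 (10 bins) and -0.01 over Col1a2 (2 bins). The bins of the chromosome 11 region had a median of -0.12 in that tumor, with -0.71 over the 1 bin of Col1a1. Of the 9 collagen genes in gained regions 2 lay above 0.2 in the tumor (Col28a1 at 0.34 and Col2a1 at 0.23) and 1 below -0.2 (Col1a1), and the 2 in lost regions lay between, with 0.15 for Col11a2 and -0.19 for Col5a1. Col11a2 also lies in a gained region of a group named normal. How far the expression of collagen genes in the cells compared enters these regions was not tested.

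In the tumors a gene's value is the median log2 copy ratio of its bins, where 0 stands for the authors' baseline. Collagen genes are long: 28 of 43 units, or 65.1%, had at least 4 bins, against 20.7% of all gene units, and the bins per unit ran from 1 to 25 with a median of 6. The remaining 15 units had under 4 bins, among them Col1a1, Col6a1, Col6a2, Col8a2, Col9a2 and Col11a2 with 1 bin each. The distance between a gene and the other bins within 1 Mb of it was taken as a guide to precision. It also holds any offset that a gene has in all tumors. Col1a1, Col3a1, Col5a2 and Col7a1 stood below their surroundings in every tumor, Col1a1 with differences from -0.55 to -0.27. The distance had a median of 0.14 for units of 1 bin, 0.12 for 2 to 3 bins, 0.07 for 4 to 7 bins and 0.06 for 8 or more bins. It passed 0.2 in 39.6% of 48 values at 1 bin, 22.2% of 72 values at 2 to 3 bins and 6.25% of 112 values in each of the longer classes. Within the 14 units of 8 or more bins, the first and the second part of the gene differed by a median of 0.08 and at most 0.33.

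**Figure D2:**
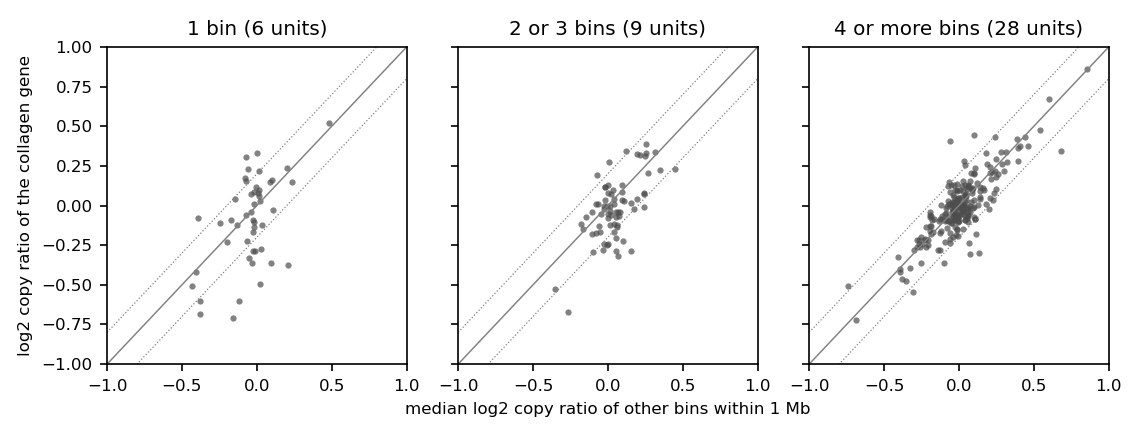
Log2 copy ratio of each collagen unit (vertical axis) against the median log2 copy ratio of the other bins within 1 Mb (horizontal axis), 1 point per unit and tumor, by the number of bins per unit. Points outside the dotted lines differ by over 0.2 from their surroundings, which holds for 19 of 48 values at 1 bin and for 7 of 112 values both at 4 to 7 bins and at 8 or more.

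In the plot of genes against their surroundings, at 4 or more bins the points follow the diagonal, up to Col15a1 at 0.86 and down to Col4a6 at -0.72. At 1 bin they lie farther from the diagonal, with Col1a1 below it in every tumor and at -0.71 where its surroundings stood at -0.16.

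A collagen unit was called gained above 0.2 and lost below -0.2. In PAX8-positive tumors 16, 20, 18 and 19 of the 43 units were altered (Lkb1-deleted tumors 1 and 4, Lkb1-intact tumors 2 and 3), against 12, 2, 9 and 10 in PAX8-negative tumors (Lkb1-deleted tumors 2, 3 and 5, Lkb1-intact tumor 1). The groups did not overlap, with a mean of 18.25 ± 1.71 against 8.25 ± 4.35 units (SD, n = 4 each). At a threshold of 0.3 they met, with 5 to 13 units in PAX8-positive and 1 to 5 in PAX8-negative tumors. The share of all genes altered was 56.4%, 58.9%, 57.6% and 50.3% in the PAX8-positive tumors and 37.1%, 26.2%, 30.1% and 43.5% in the PAX8-negative tumors, in the same order. The collagen share was below that of all genes in each of the 8 tumors, with means of 42.4% against 55.8% in PAX8-positive and 19.2% against 34.2% in PAX8-negative tumors, while collagen units also had more bins. Among units of at least 4 bins the counts were 11.5 ± 1.73 and 3.75 ± 2.63 of 28, or 41.1% in PAX8-positive and 13.4% in PAX8-negative tumors, against 45.2% and 10.9% of all genes of that length.

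Gains and losses were of like number in the PAX8-positive tumors. Lkb1-deleted tumor 1 had 9 gained and 7 lost collagen units, Lkb1-deleted tumor 4 had 9 and 11, Lkb1-intact tumor 2 had 8 and 10, and Lkb1-intact tumor 3 had 10 and 9. Of all genes, 21.9%, 26.5%, 22.6% and 25.3% were gained and 34.5%, 32.4%, 35.0% and 25.0% lost in these tumors, in the same order. Among PAX8-negative tumors Lkb1-deleted tumor 2 had 1 gained and 11 lost, Lkb1-deleted tumor 3 had 0 and 2, Lkb1-deleted tumor 5 had 6 and 3, and Lkb1-intact tumor 1 had 4 and 6. There, 14.6%, 13.4%, 12.8% and 18.7% of all genes were gained and 22.4%, 12.8%, 17.3% and 24.7% lost, in the same order. Lkb1-deleted tumor 3 was the one nearest to the baseline, with 0 of the 28 longer units altered. No collagen unit passed 1 or -1 in any tumor.

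**Figure D3:**
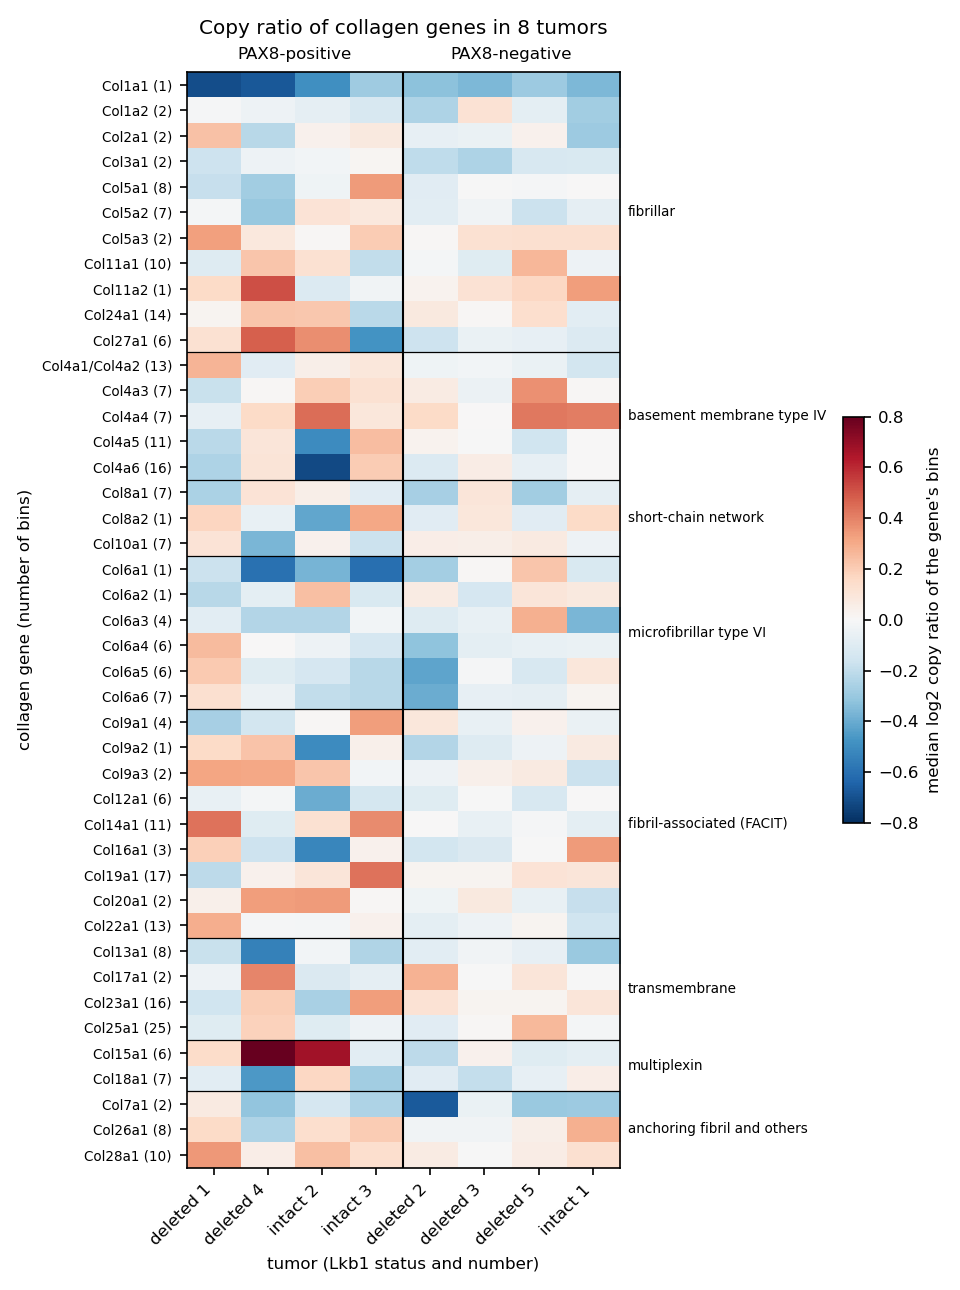
Median log2 copy ratio (colour, -0.8 to 0.8) of the 43 collagen units (rows, with bins per unit, grouped by family) in the 4 PAX8-positive (left) and 4 PAX8-negative tumors (right). Stronger colours fill the left columns, such as Col15a1 at 0.86 and Col4a6 at -0.72, and Col1a1 is below -0.2 in all 8 tumors.

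The heat map of collagen genes shows that the units altered in a tumor differ from tumor to tumor, and that no family moved as a whole. Of 11 fibrillar units the PAX8-positive Lkb1-deleted tumor 4 had 4 gained and 4 lost, the most of any tumor. Of 5 type IV units that tumor had 0 altered, whereas Lkb1-intact tumor 2 had 1 gained and 2 lost. Of 6 type VI units Lkb1-deleted tumor 2 had 4 lost and 0 gained.

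Among the fibrillar genes, the leading CAF markers rest on few bins in the tumors. Col1a1 stood at -0.71, -0.68, -0.49 and -0.29 in the PAX8-positive tumors and at -0.33, -0.36, -0.29 and -0.36 in the PAX8-negative tumors. It lay below -0.2 in all 8 tumors, and the groups overlapped. Its value rests on 1 bin, and the other bins within 1 Mb stood at -0.16, -0.38, 0.02 and -0.01 in the PAX8-positive and at -0.05, -0.03, -0.02 and 0.09 in the PAX8-negative tumors, so that only in Lkb1-deleted tumor 4 did the surroundings pass -0.2 as well. Col1a2, on another chromosome and with 2 bins, stood at -0.01, -0.04, -0.07 and -0.13 in PAX8-positive and at -0.25, 0.12, -0.08 and -0.28 in PAX8-negative tumors. It was lost in Lkb1-deleted tumor 2 and Lkb1-intact tumor 1 alone, and the ranges overlapped. The other bins within 1 Mb of Col1a2 stood at -0.002 and -0.03 in those tumors, so neither loss had surroundings past -0.2. Col3a1, the other leading CAF marker, also with 2 bins, stood at -0.17, -0.04, -0.02 and 0.01 in PAX8-positive and at -0.20, -0.25, -0.13 and -0.12 in PAX8-negative tumors, with ranges that overlapped at Lkb1-deleted tumor 1.

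Col27a1, a minor fibrillar chain of cartilage and developing tissue, had the widest range of the fibrillar genes. It stood at 0.12, 0.48, 0.37 and -0.48 in PAX8-positive and at -0.17, -0.05, -0.06 and -0.11 in PAX8-negative tumors. It was gained in Lkb1-deleted tumor 4 and Lkb1-intact tumor 2 and lost in Lkb1-intact tumor 3. Col5a1 was gained in Lkb1-intact tumor 3 at 0.34 and lost in Lkb1-deleted tumor 4 at -0.28, where Col5a2 was lost as well at -0.30. The other bins within 1 Mb of Col5a1 stood at 0.28 in Lkb1-intact tumor 3 and at -0.14 in Lkb1-deleted tumor 4. Those around Col5a2 stood at 0.07 in Lkb1-deleted tumor 4, so neither loss had surroundings past -0.2. The cartilage chain Col11a1 reached 0.22 in the PAX8-positive Lkb1-deleted tumor 4 and 0.26 in the PAX8-negative Lkb1-deleted tumor 5, and the minor chain Col24a1 reached 0.22 in Lkb1-deleted tumor 4, 0.21 in Lkb1-intact tumor 2 and -0.21 in Lkb1-intact tumor 3.

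Of the type IV genes, the Col4a1 and Col4a2 unit on chromosome 8 was gained in Lkb1-deleted tumor 1, the tumor whose number the ascites carries. It stood at 0.27, -0.09, 0.05 and 0.09 in PAX8-positive and at -0.03, -0.02, -0.05 and -0.15 in PAX8-negative tumors. The other 7 tumors lay between -0.15 and 0.09, and the PAX8 groups overlapped. Over their own RefSeq spans in that tumor, Col4a1 stood at 0.24 (6 bins) and Col4a2 at 0.30 (8 bins). The start sites of these 2 genes lie 21 bases apart on opposite strands, so no separate upstream sequence is shown for them.

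Col4a6 and Col4a5 are chains of epithelial basement membranes on chromosome X, and Col4a6 had the lowest value of any unit of at least 4 bins. It stood at -0.24, 0.11, -0.72 and 0.20 in PAX8-positive and at -0.11, 0.06, -0.07 and 0.01 in PAX8-negative tumors. Col4a5 followed it with -0.22, 0.10, -0.50 and 0.24 in the PAX8-positive tumors. Both were lost in Lkb1-deleted tumor 1 and Lkb1-intact tumor 2 and gained in Lkb1-intact tumor 3, and neither was altered in a PAX8-negative tumor. Col4a4, a chain of the kidney's glomerular membrane, stood at -0.07, 0.15, 0.44 and 0.09 in PAX8-positive and at 0.15, 0.00, 0.42 and 0.41 in PAX8-negative tumors. It passed 0.2 in 3 tumors, and in Lkb1-intact tumor 1 its surroundings stood at -0.06.

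Type VI genes differed by locus. Col6a1, with 1 bin, stood at -0.17, -0.60, -0.37 and -0.60 in PAX8-positive and at -0.27, 0.01, 0.22 and -0.12 in PAX8-negative tumors. It was lost in 4 tumors and gained in 1, and the groups overlapped. The other bins within 1 Mb of Col6a1 stood at -0.02, -0.38, 0.21 and -0.12 in PAX8-positive and at 0.03, -0.02, 0.01 and 0.04 in PAX8-negative tumors. Only in Lkb1-deleted tumor 4 did these surroundings pass -0.2 as well, and in Lkb1-intact tumor 2 they passed 0.2. Col6a2, the neighbour of Col6a1 and also with 1 bin, stood at -0.22, -0.08, 0.24 and -0.12 in PAX8-positive and at 0.06, -0.13, 0.10 and 0.08 in PAX8-negative tumors. Col6a2 thus stood above Col6a1 by over 0.2 in 4 tumors, which were Lkb1-deleted tumors 2 and 4 and Lkb1-intact tumors 2 and 3. Col6a3 on chromosome 1 was gained in Lkb1-deleted tumor 5 at 0.28 and lost in Lkb1-intact tumor 1 at -0.36 and in Lkb1-deleted tumor 4 and Lkb1-intact tumor 2 at -0.23 each. Its surroundings stood at 0.39 in Lkb1-deleted tumor 5 and at -0.10, -0.09 and 0.07 in the tumors with a loss, in the same order. No loss of Col6a3 thus had surroundings past -0.2. The chromosome 9 cluster of Col6a4, Col6a5 and Col6a6 was lost in the PAX8-negative Lkb1-deleted tumor 2, at -0.32, -0.42 and -0.40. In Lkb1-deleted tumor 1 Col6a4 reached 0.25, Col6a5 0.21 and Col6a6 0.13.

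Fibril-associated collagens were gained in up to 3 of 9 units in a tumor. Col14a1, which binds type I fibres, stood at 0.43, -0.10, 0.12 and 0.38 in PAX8-positive and at 0.00, -0.06, -0.01 and -0.08 in PAX8-negative tumors. It was gained in Lkb1-deleted tumor 1 and Lkb1-intact tumor 3, and Lkb1-deleted tumor 4 kept the groups from separating. Col22a1, on the same chromosome, was gained in Lkb1-deleted tumor 1 alone, at 0.29. Col19a1 stood at -0.21 in Lkb1-deleted tumor 1 and 0.43 in Lkb1-intact tumor 3, and Col12a1, which bridges fibres, at -0.40 in Lkb1-intact tumor 2. Gains of fibril-associated units numbered 3 in each of Lkb1-deleted tumors 1 and 4 and Lkb1-intact tumor 3, and 0 in Lkb1-deleted tumors 2, 3 and 5. Of all genes, 21.9%, 26.5% and 25.3% were gained in the former tumors and 14.6%, 13.4% and 12.8% in the latter. With 9 units, nothing is read from these counts.

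The multiplexin Col15a1, a collagen of the zone next to basement membranes, had the highest copy ratio of any collagen gene. It stood at 0.14, 0.86, 0.67 and -0.08 in PAX8-positive and at -0.21, 0.03, -0.09 and -0.08 in PAX8-negative tumors. Lkb1-deleted tumor 4 and Lkb1-intact tumor 2 stood far above the rest, and Lkb1-intact tumor 3 lay within the PAX8-negative range. The other bins within 1 Mb stood at 0.12, 0.86, 0.60 and -0.17 in the PAX8-positive tumors. Its relative Col18a1, the other multiplexin, stood at -0.08, -0.46, 0.17 and -0.28 in the PAX8-positive tumors and between -0.19 and 0.06 in the PAX8-negative tumors. Among transmembrane collagens Col13a1, found at cell contacts, stood at -0.54 and Col17a1, of hemidesmosomes, at 0.39 in Lkb1-deleted tumor 4, and Col23a1 at 0.33 in Lkb1-intact tumor 3. Col7a1, of the anchoring fibrils below epithelia, stood at 0.07, -0.32, -0.13 and -0.24 in PAX8-positive and at -0.67, -0.05, -0.30 and -0.29 in PAX8-negative tumors, from 2 bins. Its surroundings stood at 0.24, 0.07, 0.06 and -0.02 in the PAX8-positive and at -0.27, 0.00, -0.10 and 0.16 in the PAX8-negative tumors. Only in Lkb1-deleted tumor 2 did the surroundings pass -0.2 as well. Col28a1 stood at 0.34 in Lkb1-deleted tumor 1 and 0.24 in Lkb1-intact tumor 2.

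Lkb1-intact tumor 2 had gained and lost collagen genes on chromosome 4. Beside the gained Col15a1 (start at 47207655) and Col27a1 (63214009), the distal Col9a2 and Col16a1, fibril-associated chains, and Col8a2, a short-chain collagen of endothelium and cornea, stood at -0.50, -0.52 and -0.42 in that tumor. These 3 units have 1 to 3 bins, and the other bins within 1 Mb of them stood at -0.43, -0.35 and -0.41, so the surroundings were lost as well. On chromosome 2 lie the neighbours Col9a3 and Col20a1, both fibril-associated. Col9a3 stood at 0.32, 0.31, 0.22 and -0.02 in PAX8-positive and at -0.04, 0.04, 0.07 and -0.17 in PAX8-negative tumors. Col20a1 stood at 0.04, 0.33, 0.34 and 0.01 in PAX8-positive and at -0.03, 0.08, -0.06 and -0.18 in PAX8-negative tumors. Both were gained in Lkb1-deleted tumor 4 and Lkb1-intact tumor 2, Lkb1-deleted tumor 1 had a gain of Col9a3 alone, and the PAX8 groups overlapped.

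Among the remaining members, the short-chain Col8a1 was lost in Lkb1-deleted tumors 1, 2 and 5, at -0.25, -0.26 and -0.28, with surroundings at -0.21, -0.28 and -0.30. Col10a1, of growth plate cartilage, was lost at -0.36 in Lkb1-deleted tumor 4. Col11a2, a cartilage chain with 1 bin, stood at 0.52 in Lkb1-deleted tumor 4, where its surroundings stood at 0.48. Col2a1, the main collagen of cartilage, stood at 0.23 in Lkb1-deleted tumor 1, at -0.22 in Lkb1-deleted tumor 4 and at -0.29 in Lkb1-intact tumor 1, but differed from its surroundings by over 0.2 in each. Col5a3 was gained at 0.33 in Lkb1-deleted tumor 1 and 0.20 in Lkb1-intact tumor 3, and Col25a1, the longest unit with 25 bins, at 0.26 in Lkb1-deleted tumor 5.

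Few collagen genes were altered the same way in many tumors. At least 4 of 8 tumors shared a direction for 3 of the 43 units, or 6.98%, against 33.4% of all genes, and all 3 were losses, against 20.4% of all genes lost in this way. They were Col1a1 in 8 tumors, Col7a1 in 5 and Col6a1 in 4, and each rests on 1 or 2 bins. Col1a1 and Col7a1 also stood below their surroundings in every tumor. Among units of at least 4 bins the count was 0 of 28, against 9.62% of all genes of that length. With the median of the 1 Mb window that holds the gene, its own bins included, the count was 0 of 43 as well. Of all genes 5.38% were altered alike in that setting, which is a low background. Of the genes that fold and crosslink collagen, 1 of 31 units was gained alike (P3h3) and 6 were lost alike, among them Lox and Serpinh1. Of all genes 13.1% were gained and 20.4% lost alike, so nothing is read from these counts. Of 9 folding and crosslinking units of at least 4 bins 1 was lost, against 5.23% of all genes of that length. Of 11 collagen receptors 3 were gained and 2 lost alike, and of 9 collagen-cleaving enzymes 2 and 0. Of 16 other basement membrane units 1 was gained and 4 lost alike, and of 14 collagen-binding units 0 and 3.

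Most altered values of the longer collagen units lay in a 1 Mb window altered the same way, but the window holds the gene's own bins. A long gene can thus set its window, as for Col25a1 in Lkb1-deleted tumor 5, with 1 window at 0.26 and the gene at 0.26. The like share of all genes was not taken, so nothing particular to collagens is read from the count. Of the 61 altered values in units of at least 4 bins, 45 came from a 1 Mb window that was altered the same way, in 32 distinct runs with a median of 12.5 such windows, of which 4 runs had 1 window. The gain of Col15a1 and Col27a1 in Lkb1-deleted tumor 4 belonged to a run of 28 windows on chromosome 4 from 40000001 to 71000000 with a mean of 0.62. In Lkb1-intact tumor 2 the run went from 40000001 to 64000000 with 23 windows and a mean of 0.50. The loss of Col27a1 in Lkb1-intact tumor 3 belonged to a run of 17 windows from 52000001 to 71000000 with a mean of -0.32, which left Col15a1 outside. Both genes thus shared a gained stretch in 2 PAX8-positive tumors, and 1 of them was lost in another. The loss of Col4a5 and Col4a6 in Lkb1-intact tumor 2 covered 105 windows of chromosome X from 56000001 to 170000000 with a mean of -0.76.

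Col14a1 was gained over 51 windows of chromosome 15 in Lkb1-deleted tumor 1 (3000001 to 61000000, mean 0.39) and over 8 windows in Lkb1-intact tumor 3 (52000001 to 60000000, mean 0.42). The gain of Col4a1 and Col4a2 in Lkb1-deleted tumor 1 was short, with 6 windows on chromosome 8 from 9000001 to 15000000 and a mean of 0.26. Col13a1 and Col18a1 shared a loss of 85 windows on chromosome 10 in Lkb1-deleted tumor 4 (38000001 to 131000000, mean -0.41). Among PAX8-negative tumors, Lkb1-deleted tumor 5 had Col4a3, Col4a4 and Col6a3 in a gain of 59 windows on chromosome 1 (63000001 to 131000000, mean 0.38), and Lkb1-deleted tumor 2 had the Col6a4 cluster in a loss of 10 windows on chromosome 9 (102000001 to 112000000, mean -0.33). Positions are in build GRCm38.

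No collagen gene differed by PAX8 label beyond the spread between tumors once adjusted over all genes. The limma fit over 18331 genes called 0 genes at a Benjamini-Hochberg adjusted p under 0.05, which is 0% of all genes, and 0 of the 43 collagen units. At an unadjusted p under 0.05 it held 1235 genes, or 6.74%, and 2 of the 43 collagen units, so that the collagen share is close to that of all genes. Exact permutation of the labels, in which 70 splits allow a smallest p of 0.0286, had 679 genes at an unadjusted p under 0.05. It called 0 genes after adjustment. A p of that size passes adjustment only if a large part of the 18331 genes reach it, so nothing is concluded from the 0.

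The 2 collagen units were Col6a1 and Col15a1. Col6a1 averaged -0.44 ± 0.21 in PAX8-positive and -0.04 ± 0.21 in PAX8-negative tumors (SD, n = 4 each), a difference of -0.39 (SE 0.15) with a limma p of 0.0275, a Benjamini-Hochberg adjusted p of 0.741 and an exact permutation p of 0.0571. Col15a1 averaged 0.40 ± 0.44 in PAX8-positive and -0.09 ± 0.10 in PAX8-negative tumors (SD, n = 4 each), a difference of 0.49 (SE 0.20, 95% interval 0.03 to 0.94) with a limma p of 0.0401, an adjusted p of 0.741 and an exact permutation p of 0.0857. The Col15a1 difference ranged from 0.33 to 0.65 over 15 alternative fits and rests on Lkb1-deleted tumor 4 and Lkb1-intact tumor 2. Col6a1 rests on 1 bin, and Col6a2 beside it averaged -0.05 ± 0.20 in PAX8-positive and 0.03 ± 0.11 in PAX8-negative tumors (SD, n = 4 each).

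After Col15a1, the largest PAX8 differences among units of at least 4 bins were 0.24 for Col14a1 (SE 0.14, limma adjusted p = 0.785), 0.22 for Col27a1 (SE 0.20, limma adjusted p = 0.849), 0.15 for Col6a4 (SE 0.13, limma adjusted p = 0.845) and 0.14 for the Col4a1 and Col4a2 unit (SE 0.12, limma adjusted p = 0.837). Each was higher in the PAX8-positive tumors on average, and in each the groups overlapped. The interval for Col14a1 ran from -0.07 to 0.55 and that for Col27a1 from -0.22 to 0.66, so each interval holds 0 as well as larger differences. Several of these differences rest on 1 tumor: Col27a1 was at 0.10 without Lkb1-deleted tumor 4, 0.14 without Lkb1-intact tumor 2 and 0.42 without Lkb1-intact tumor 3. Col6a4 was at 0.069 without Lkb1-deleted tumor 1 and 0.082 without Lkb1-deleted tumor 2, and the Col4a1 and Col4a2 unit at 0.080 without Lkb1-deleted tumor 1. For Col27a1 the PAX8-positive mean of 0.12 ± 0.43 joins 2 gains with a loss of like size, against -0.10 ± 0.05 in PAX8-negative tumors (SD, n = 4 each).

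**Figure D4:**
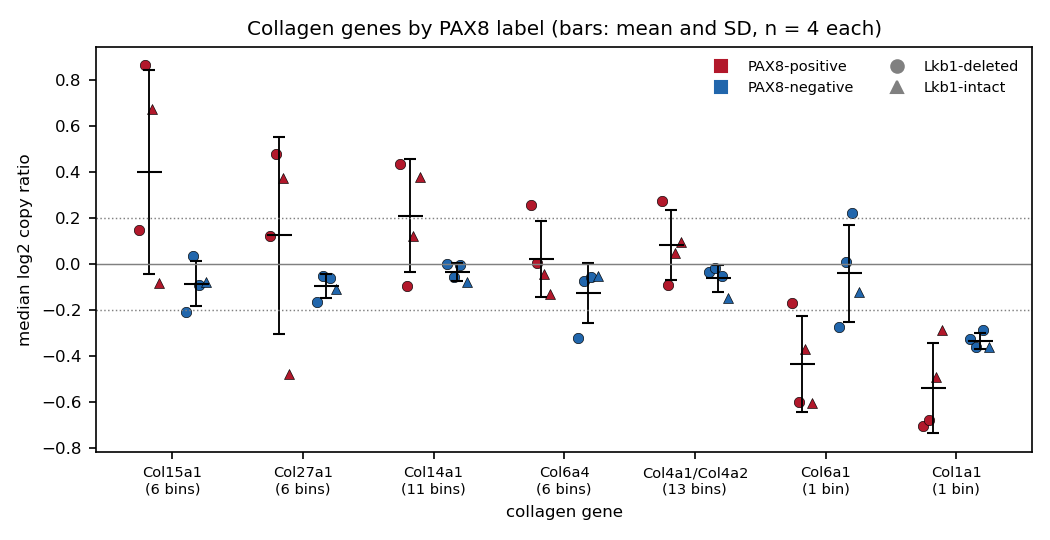
Median log2 copy ratio (vertical axis) of 7 collagen units in each tumor, with PAX8-positive tumors in red on the left and PAX8-negative tumors in blue on the right of each pair, circles for Lkb1-deleted and triangles for Lkb1-intact tumors, and bars for the mean and SD (n = 4 each). For Col15a1, Col27a1 and Col14a1 the PAX8-positive points spread widely, as for Col27a1 from -0.48 to 0.48. The PAX8-negative points of these units stay closer together, as for Col14a1 from -0.08 to 0.00. For Col6a1 the SD was 0.21 in both groups.

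The plot of values by PAX8 label shows that for Col15a1, Col27a1 and Col14a1 the labels differ more plainly in spread than in mean. The SD over tumors was 0.44 in PAX8-positive and 0.10 in PAX8-negative tumors for Col15a1, 0.43 and 0.05 for Col27a1, and 0.25 and 0.04 for Col14a1. Col6a1 had an SD of 0.21 in both groups, and Col6a4 had 0.17 and 0.13. The Col4a1 and Col4a2 unit had 0.15 and 0.06, and Col1a1 had 0.20 and 0.03. The difference in spread was not tested.

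No collagen gene was called by Lkb1 status. The limma fit called 5 of 18331 genes, or 0.0273%, at a Benjamini-Hochberg adjusted p under 0.05, and 0 of the 43 collagen units. The 5 calls changed to between 0 and 14 when 1 tumor was left out. At an unadjusted p under 0.05 there were 1207 genes, or 6.58%, and again 0 collagen units. The largest differences among units of at least 4 bins were -0.23 for Col26a1 (SE 0.13, limma adjusted p = 0.816), -0.22 for Col5a1 (SE 0.13, limma adjusted p = 0.827) and -0.21 for Col19a1 (SE 0.13, limma adjusted p = 0.826). Col26a1, known from testis and ovary, stood at 0.15, -0.03, -0.03, -0.24 and 0.05 in Lkb1-deleted tumors 1 to 5 and at 0.28, 0.13 and 0.20 in Lkb1-intact tumors 1 to 3. The Lkb1-intact tumors were the higher ones on average, with an overlap at Lkb1-deleted tumor 1. Col5a1 stood highest in Lkb1-intact tumor 3 at 0.34, as did Col19a1 at 0.43, and without that tumor the differences were -0.096 for Col5a1 and -0.10 for Col19a1. With the mean in place of the median of bins the Col26a1 difference was -0.15.

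Collagen genes that lie side by side gave a measure of repeatability, since a shared segment should give neighbours a like value. In 6 pairs within 1 Mb in which both genes had at least 4 bins, the values in the same tumor differed by a median of 0.07, and 3 of 48 differences passed 0.2. In 5 pairs with a gene of under 4 bins the median was 0.14, and 12 of 40 passed 0.2. Col6a6 and Col6a5, whose ends lie 27824 bp apart, differed by at most 0.08 in any tumor, and Col9a1 and Col19a1, 4945 bp apart, by at most 0.18. Col4a6 and Col4a5, head to head with 1275 bp between them, differed by at most 0.22. Col4a4 and Col4a3, whose annotated starts overlap, differed by 0.40 in Lkb1-intact tumor 1, the largest gap among the longer pairs. Col6a2 and Col6a1, 85162 bp apart with 1 bin each, differed by up to 0.61.

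**Figure D5:**
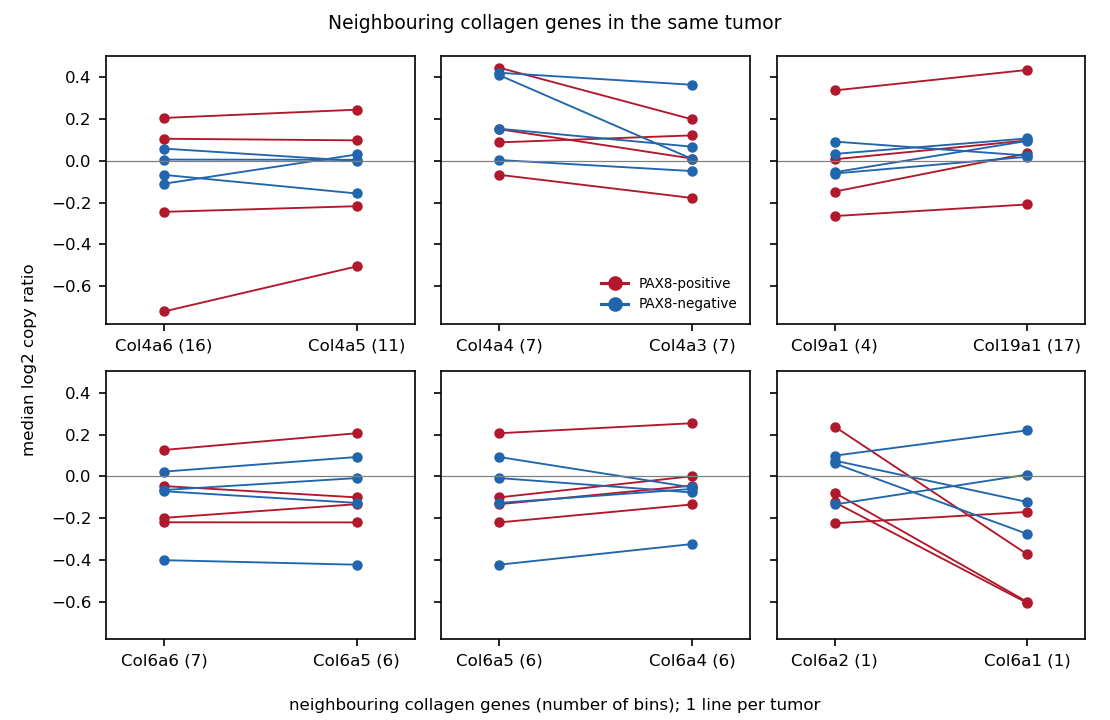
Median log2 copy ratio (vertical axis) of neighbouring collagen genes, with 1 line per tumor (red PAX8-positive, blue PAX8-negative) and the number of bins in brackets. Lines are near level for the type IV pair on chromosome X and the type VI cluster on chromosome 9, and cross for Col6a2 and Col6a1, which differ by up to 0.61.

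The plot of neighbouring genes shows the tumors in nearly the same order at both ends for Col6a6 and Col6a5, and a change of order for Col6a2 and Col6a1. The type V gene Col5a2 and the type III gene Col3a1, 24625 bp apart, differed by a median of 0.12 and by over 0.2 in 2 of 8 tumors, with 2 bins behind Col3a1.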

How the data were processed

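Whole genome sequencing of 8 ovarian tumors and single-cell RNA sequencing of the ascites of 1 mouse were used. The normal tube and uterus library was not analysed here. BWA, Picard, Cell Ranger, Seurat 2.3.4 and the build GRCm38 (mm10) are named in the submitters' processing notes. Per the file headers, every gene bin has a log2 copy ratio deposited by the authors, whose baseline and calling tool are not given in the sources used here. Beside it, the tumor tables deposited by the authors hold read depth (a coverage signal) and a weight score, which was not used. For each ascites marker the authors deposited a fold change on a log scale, taken as natural log after the Seurat version, with a p-value and an adjusted p-value. The sources used here do not state how doublets were treated before clustering, and no matrix of cells was used to check for them. The authors deposited copy number regions with a state score, for which 3 was read as neutral, a value the file headers do not state. Start positions in the gene table of those regions matched the gene's own RefSeq start within 2000 bp in 0.87% of 1511 rows and that of the row before in 90.4%, so they were not used.

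Bins of depth 0 were treated as missing, which touched 0 of the 292 collagen bins. The bins had a median length of 18627 bp, and their median gave the value of a gene. Members were found by symbol in the gene column, and Col4a1 and Col4a2 formed 1 unit. Col9a3, Col10a1 and Col18a1 share some bins with genes that are no collagens. Altered means above 0.2 or below -0.2. Groups were compared with limma 3.58.1 in R 4.3.3 over all 18331 genes that had a bin of depth above 0 in every tumor, with Benjamini-Hochberg adjustment over all of them, and only collagen rows are printed. Exact permutation of single genes used 70 splits for PAX8 and 56 for Lkb1, whose smallest p is 0.0179. The fits were tested on simulated data. Upstream sequences come from RefSeq (GRCm38.p6) and matched 35 of the 44 genes.

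Named in full are collagens listed in ascites, those altered alike in at least 4 tumors, the 5 and 3 units of at least 4 bins with the largest PAX8 and Lkb1 differences, any past 1 or -1, and neighbours within 1 Mb. The other values were chosen after they were seen. Members and lists were chosen with earlier results of these data known. Tumor numbers follow accession order and pair nothing. Alternatives were the mean of bins, the 1 Mb window, at least 4 bins, recentring, autosomes, an additive model of both labels, trend and robust variance, permutation, thresholds of 0.1 and 0.3, and each tumor left out. Keeping bins of depth 0 and taking bins over the RefSeq span were added after seeing the data. No column was left unmapped. Values and figures were made with pandas 2.3.3, numpy 2.4.6 and matplotlib 3.10.9 in Python 3.11.15.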

Additional observations from a re-analysis of the deposited data

Results flagged for a closer look

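Of 54 checks over 17 collagen units in groups of 4 or 5 tumors, 7 had 1 tumor far from the others of its group. Chance alone sets about 1 in 20 groups apart when units are not chosen from the same values. Here the units with the largest PAX8 and Lkb1 differences were among the 17. The Lkb1-deleted group also shares tumors with both PAX8 groups, so the 7 are not weighed against that rate. In PAX8-positive tumors Lkb1-deleted tumor 4 was set apart by Col26a1 at -0.24 (the nearest at 0.13). In PAX8-negative tumors Lkb1-deleted tumor 2 was set apart by Col6a4 at -0.32 (the nearest at -0.08) and by Col5a1 at -0.089 (the nearest at -0.01), and Lkb1-deleted tumor 3 by Col6a2 at -0.13 (the nearest at 0.06, 1 bin). Among Lkb1-deleted tumors, tumor 1 was set apart by Col14a1 at 0.43 (the nearest at 0.00), by the Col4a1 and Col4a2 unit at 0.27 (the nearest at -0.02) and by Col19a1 at -0.21 (the nearest at 0.02). The values of Col14a1, Col26a1, Col6a4, Col19a1 and the Col4a1 and Col4a2 unit lie in altered stretches of 4 to 51 windows of 1 Mb in those tumors.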

How the results depend on the processing

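The number of collagen units called stayed at 0 for both labels under all 15 alternative fits. Each of the 8 largest differences kept its direction in its 15 alternatives, but these units were chosen as the largest in the same tumors. The fits with at least 4 bins, autosomes, trend and robust variance or bins of depth 0 kept leave the difference itself unchanged. Nothing is therefore concluded from the kept direction. The differences of Col27a1, Col6a4, Col5a1, Col19a1, Col26a1 and the Col4a1 and Col4a2 unit moved by over 1.5 times under at least 1 alternative, as given above. Over all genes, the PAX8 count of 0 ranged from 0 to 1 with a tumor left out, and was 1 without Lkb1-deleted tumor 4. The Lkb1 count of 5 was 1 for genes of at least 4 bins, 2 with the additive model, with trend and robust variance and with bins of depth 0 kept, and ranged from 0 to 14 with a tumor left out. It was 0 without Lkb1-deleted tumor 1, 2, 3 or 4 or Lkb1-intact tumor 1, 1 without Lkb1-intact tumor 2 and 14 without Lkb1-deleted tumor 5. By exact permutation the Lkb1 count was 0 (958 genes at an unadjusted p under 0.05). Its smallest p of 0.0179 passes adjustment only if a large part of all genes reach it, so nothing is concluded from that 0. The mean count of altered collagen units in PAX8-positive tumors was 28.75 at a threshold of 0.1, 9.5 at 0.3 and 11.5 for at least 4 bins, against 16.25, 3.25 and 3.75 in PAX8-negative tumors, where the 1 Mb window gave 3.5. The groups met at 5 units at a threshold of 0.3. Collagens altered alike in at least 4 tumors numbered 13 at 0.1, 1 at 0.3, 0 with the 1 Mb window and 0 for at least 4 bins, and 2 to 3 with a tumor left out. Ascites entries numbered 4 at a log fold change of at least 1. The fewer calls at higher thresholds and bin minimums follow from their construction, and the cause of the other shifts was not tested. No paired analysis was possible because each tumor has its own number and the groups share none. Depth near 1 to 2 limits units of 1 to 3 bins, and weak ascites markers are not listed.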
